A study of Homo sapiens with 27 samples.

Results

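Cytosolic ribosomal protein genes encode the proteins of the large (RPL, with the stalk genes RPLP) and the small (RPS) ribosomal subunit. They were taken as the rows of the exon count table whose symbol begins with RPL, RPS or RPLP followed by a digit, without the RPS6K kinases, the Y-linked RPS4Y copies and RPS19BP1. The rule gave 88 of 20268 gene symbols, of which 52 were RPL, 33 RPS and 3 RPLP symbols. They comprised 76 core genes, 9 paralog symbols (RPL3L, RPL7L1, RPL10L, RPL22L1, RPL26L1, RPL36AL, RPL39L and RPS27L among them) and 3 readthrough symbols that join a ribosomal protein gene to its downstream neighbour (RPS10-NUDT3, RPL36A-HNRNPH2 and RPL17-C18orf32). Counts above 0 were found in every library for 83 of the 88.

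RNA was sequenced from 27 libraries of 3 prostate cancer cell lines, the hormone-sensitive line LNCaP and the hormone-insensitive lines LNCaP95 and 22Rv1. Each line was transduced with a lentivirus that carried a non-targeting hairpin (CTRL sh) or either of the hairpins CPSF1 sh1 and CPSF1 sh2, and each of the 9 groups had 3 libraries, which the study calls biological replicates, so that p-values measure the spread between these libraries. All cells, controls included, were puromycin-selected pools of infected cells, and wells of 500000 cells were harvested after 72 h. LNCaP and 22Rv1 cells were kept in RPMI medium with serum and LNCaP95 cells in phenol red-free RPMI medium with serum. In comparisons of LNCaP95 with the other lines, line and medium therefore cannot be told apart. CPSF1 is the large subunit of the cleavage and polyadenylation specificity factor, the complex that binds the poly(A) signal of a pre-mRNA, where the RNA is cut and given its poly(A) tail, and the question here was how the ribosomal protein mRNAs differed between the lines and after knockdown.

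Ribosomal protein mRNAs are mostly short, stable and abundant, and their proteins are made in equal numbers for assembly in the nucleolus. Most of them begin with a terminal oligopyrimidine (TOP) tract, a C at the start followed by a run of C and T bases, through which the kinase mTORC1 and the protein LARP1 set their translation and stability. Several introns of these genes carry small nucleolar RNAs, and several core proteins have a paralog that can take their place in the ribosome.

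The first bases of the RNA are shown for the genes whose levels differed most between lines (RPL13A, RPL28, RPS12) and for RPL22 and RPL34, which fell in every line. They are also shown for the paralogs that rose without overlap of the groups, since these differ among themselves in the TOP tract. Sequences are 30 bases around the annotated start on the gene's own strand, 5′ to 3′, from RefSeq (GRCh38.p14), with the first C and the pyrimidine run in capitals, where the run is at least 4 bases after the C and begins within 10 bases of the start.
RPL13A: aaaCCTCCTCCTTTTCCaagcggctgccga
RPL28: cctcgCCTTCCTCTTTCCgtctcaggtcgc
RPS12: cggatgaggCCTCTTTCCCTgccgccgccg
RPL22: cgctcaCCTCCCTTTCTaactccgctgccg
RPL34: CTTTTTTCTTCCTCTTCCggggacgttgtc
RPL22L1: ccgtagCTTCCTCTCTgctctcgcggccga
RPL26L1: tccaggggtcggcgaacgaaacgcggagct
RPL7L1: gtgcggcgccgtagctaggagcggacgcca
RPS27L: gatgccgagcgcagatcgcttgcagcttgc
The tract was found in 60 of the 69 members with an entry (86.96%), against 38.43% of 27305 genes with a promoter entry, and its median run was 11 bases in members and 6 bases in all genes that hold one. RPL26L1, RPL7L1 and RPS27L were among the 9 members without it, as was RPL10L, whose sequence is not shown. The others without it were the core genes RPS4X, RPL6, RPS29, RPL27 and RPL17. A match is a description of these letters only.

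The bases around the poly(A) signal are shown for RPL22 and RPS27 with their paralogs, which were among the pairs that moved apart after CPSF1 knockdown. RPL17, the upstream part of the readthrough symbol that rose, is shown as well. RPL7, which moved apart from RPL7L1 in LNCaP95, holds neither AATAAA nor ATTAAA in its last 50 bases. Each sequence is 30 bases of the canonical transcript (GRCh37), with the signal in capitals.
RPL22: atcatattttctATTAAAgtggctaacacc
RPL22L1: aagggagggcttAATAAAaggaatttcatc
RPS27: ggaaaccatctcAATAAAcacattttggat
RPS27L: gaagactgcatcAATAAAattgcatgccat
RPL17: attcagcattaaAATAAAtgtaattaaaag
Of 86 members with a canonical transcript, AATAAA lay in the last 50 bases of 53 (61.63%), ATTAAA of 13 (15.12%) and neither of 20 (23.26%), which compares with 65.53%, 14.37% and 20.1% of 17580 genes of the table. The canonical transcripts of the members had a median length of 827 bases, against 3001 bases for all genes, and a median of 5 against 8 exons.

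Libraries held 8515624 to 15904518 gene counts (median 11058723), and mitochondrial genes took 1.49 to 2.30% of them. Levels are given as CPM, a gene's count relative to its library's total, scaled by the trimmed mean of M-values (TMM) over the 27 libraries. Of 8 prostate luminal markers, which include KLK3, 8 were above 1 CPM in each line, with summed levels of 3515 to 4816 CPM in LNCaP, 4232 to 6411 CPM in LNCaP95 and 2730 to 3002 CPM in 22Rv1 libraries, while 4 blood markers summed to at most 2.37 CPM and 5 fibroblast markers to 18.1 to 74.2 CPM. Of the fibroblast markers, COL1A2 and DCN were at 0 in all LNCaP libraries and DCN and LUM in all LNCaP95 libraries. The library LNCaP CPSF1 sh1 replicate 3 stood apart from its group. Of 43 genes with a median count of 0 in LNCaP and at least 200 counts in every 22Rv1 library, all 43 had counts in that library, 1319 in sum or 6.49% of the 22Rv1 level, whereas the other 8 LNCaP libraries held 6 to 23 counts (at most 0.104%). Without it, 81 of 83 tested members kept their call after knockdown in LNCaP (1 lost and 1 gained), 71 with CPSF1 sh1 alone (9 lost and 3 gained), and 77 between the hairpins (4 lost and 2 gained). In the library LNCaP95 CPSF1 sh2 replicate 2, all 11 genes that marked LNCaP against LNCaP95 in the same way had counts, 43 in sum or 0.298% of the LNCaP level, beside 0 to 3 counts in the other LNCaP95 libraries, and without it 78 of 83 members kept their knockdown call in LNCaP95 (5 lost and 0 gained). Where these counts came from was not tested.

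CPSF1 fell with both hairpins in every line. Fold changes are log2 values from edgeR's quasi-likelihood test with Benjamini-Hochberg adjustment over all tested genes, with a call at an adjusted p below 0.05. In LNCaP cells CPSF1 was at 154, 153 and 156 CPM with CTRL sh, 109.9, 96.2 and 102 CPM with CPSF1 sh1 and 99.8, 91.5 and 87.6 CPM with CPSF1 sh2. The LNCaP95 levels were 129, 98.02 and 118 CPM with CTRL sh, 69.5, 57.9 and 59.6 CPM with CPSF1 sh1 and 62.5, 64.8 and 59.7 CPM with CPSF1 sh2, and those of 22Rv1 were 194, 186 and 187 CPM with CTRL sh, 114, 139 and 140.0 CPM with CPSF1 sh1 and 129, 145 and 136 CPM with CPSF1 sh2. All 6 CPSF1 sh libraries lay below the 3 CTRL sh libraries in each line, and the pooled change was -0.65 ± 0.056 (SE, adjusted p = 1.69e-07) in LNCaP, -0.89 ± 0.079 (SE, adjusted p = 1.31e-06) in LNCaP95 and -0.50 ± 0.062 (SE, adjusted p = 9.66e-05) in 22Rv1 cells.

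The members together took 4.11 ± 0.060% of the counts (SD, n = 3, from 4.07 to 4.18%) in LNCaP CTRL sh cells, 2.103 ± 0.038% (from 2.06 to 2.14%) in LNCaP95 and 3.32 ± 0.152% (from 3.19 to 3.49%) in 22Rv1 CTRL sh cells, so that the 3 lines did not overlap. With the CPSF1 hairpins LNCaP cells had a share of 3.79 ± 0.144% (SD, n = 6), LNCaP95 cells 2.00 ± 0.036% and 22Rv1 cells 3.11 ± 0.155%, a difference of -0.318, -0.106 and -0.218 percentage points, of which the last was -0.135 without 22Rv1 CTRL sh replicate 3. Without LNCaP CPSF1 sh1 replicate 3 the first was -0.317. The 6 knockdown libraries lay below the 3 controls in LNCaP (3.61 to 4.05%) and in LNCaP95 (1.95 to 2.04%), whereas in 22Rv1 they ranged from 2.97 to 3.40% and overlapped the controls. No test was run on this sum. A lower share in a pool of cells can come from fewer cells that express the genes, from less of their RNA per cell or from more RNA of other genes, which cannot be told apart.

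**Figure D1:**
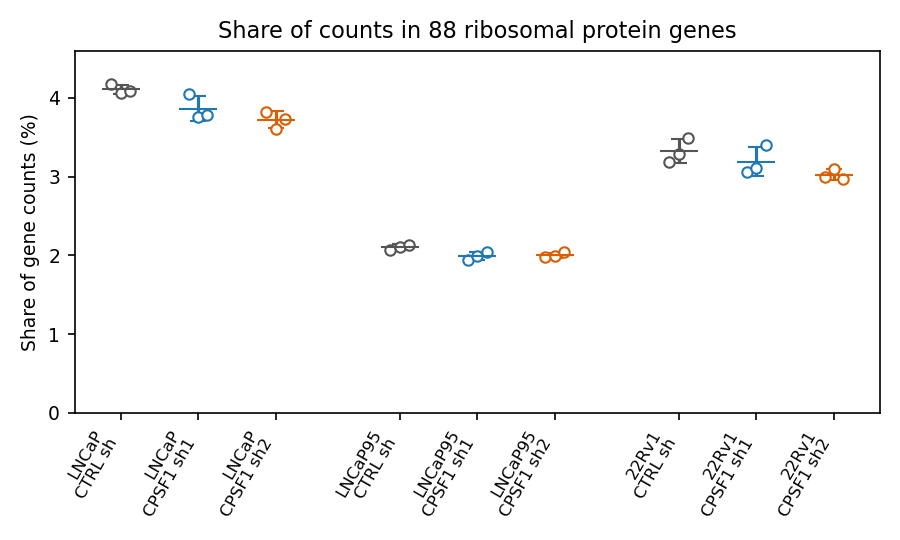
Share of all gene counts (%, vertical axis) that fell on the 88 ribosomal protein genes, by line and hairpin. Circles are libraries, bars are the mean and error bars the SD of 3 libraries. LNCaP95 libraries sit between 1.95 and 2.14% and all libraries of the other lines at 2.97% or above.

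Per kilobase of all annotated exons, the members of CTRL sh cells had a median of 219 CPM in LNCaP, 120 CPM in LNCaP95 and 173 CPM in 22Rv1. The annotated exons of the members had a median length of 1990.5 bases, against 827 bases for their canonical transcripts. Ranks and ratios between genes, here and below, therefore depend on the annotation. RPL13A was highest in LNCaP at 1031 ± 19.6 CPM per exon kilobase (SD, n = 3), ahead of the small subunit genes RPS18 at 856 ± 25.8 and RPS12 at 768 ± 24.3. In LNCaP95 the order began with RPL8 at 477 ± 17.2, RPS18 at 419 ± 11.6 and RPL19 at 417 ± 11.7 CPM per exon kilobase, and in 22Rv1 with RPL8 at 724 ± 29.6, RPS18 at 689.8 ± 46.6 and RPL13A at 669.8 ± 31.1. The lowest members were the tissue-restricted paralogs and the readthrough symbols. RPL3L, the paralog of RPL3 known from muscle, did not exceed 0.399 CPM in any library, and RPL36A-HNRNPH2 had 0 to 2 counts per library.

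A pair of paralogs was found in some lines only. RPL39L, a paralog of RPL39 known from testis, had 407 to 608 counts in each 22Rv1 library and 0 counts in each LNCaP95 library, where a count of 0 allows up to 3 counts. Of the 9 LNCaP libraries 8 were at 0, and the other, with 38 counts, was CPSF1 sh1 replicate 3, the library with 22Rv1-type counts. RPL10L, a retrocopy of RPL10 also known from testis, had 0 counts in all 9 22Rv1 libraries, 61 to 122 counts in LNCaP and 236 to 415 counts in LNCaP95 libraries.

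Without CPSF1 knockdown, nearly all members were lower in LNCaP95 than in LNCaP cells. In CTRL sh cells 80 of 82 tested members were lower and 1 was higher, with a median log2 difference of -0.87, whereas 37.2% of 10317 tested genes were lower, 38.8% were higher and their median was 0.02. The differences were largest for RPL28, RPL13A and RPS12. RPL28, a large subunit protein, was at 373, 361 and 370.2 CPM in LNCaP and 91.6, 84.0 and 95.6 CPM in LNCaP95 CTRL sh cells, a log2 difference of -2.03 ± 0.062 (SE, adjusted p = 3.16e-22). RPL13A, a large subunit protein that is also known as a repressor of translation, was at 1557, 1502 and 1514 CPM against 413, 387 and 404 CPM, a difference of -1.93 ± 0.066 (SE, adjusted p = 5.27e-21). RPS12 of the small subunit was at 501, 471 and 483 CPM against 139.9, 148 and 152 CPM, a difference of -1.72 ± 0.053 (SE, adjusted p = 2.90e-22). For these genes the CTRL sh libraries of the lines did not overlap.

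The smallest differences among the core genes that passed belonged to RPL22, which binds RNA and is not needed for translation itself, at -0.22 ± 0.05 (SE, adjusted p = 0.000288), and to RPS27A, which is made as a fusion with ubiquitin, at -0.32 ± 0.05 (SE, adjusted p = 1.15e-06). RPL26L1, a paralog of RPL26, was the member that was higher, at 51.7, 51.8 and 46.4 CPM in LNCaP and 68.0, 67.0 and 70.2 CPM in LNCaP95, a difference of 0.45 ± 0.063 (SE, adjusted p = 1.81e-07), while RPL26 itself was lower, with a difference of -0.92 ± 0.053 (SE, adjusted p = 9.61e-16).

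Both subunits and every class of members took part. In LNCaP95 against LNCaP, 46 of 47 tested RPL, 31 of 32 RPS and 3 of 3 RPLP genes were lower, with medians of -0.88, -0.85 and -0.78. Among members with a TOP tract 58 of 58 were lower with a median of -0.83, and among those without it 7 of 8, with a median of -0.84. All 28 genes that host small nucleolar RNAs were lower with a median of -0.96, beside 52 of 54 other members with a median of -0.80.

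22Rv1 cells lay between the other lines. Against LNCaP, 61 of 82 members were lower and 2 higher in CTRL sh cells, with a median of -0.35, where 39.5% of all genes were lower and 39.2% higher. The largest differences were those of RPL17, which lies at the exit of the peptide tunnel, at -0.99 ± 0.058 (SE, adjusted p = 1.02e-15), and of the paralogs RPL22L1 at -0.88 ± 0.066 (SE, adjusted p = 3.02e-13) and RPS27L at -0.78 ± 0.06 (SE, adjusted p = 6.47e-13). RPS27A, at 0.24 (adjusted p = 7.12e-05), and RPS19, a gene mutated in Diamond-Blackfan anaemia, at 0.38 (adjusted p = 1.06e-06), were the members that were higher. Against LNCaP95, 73 of 82 members were higher in 22Rv1 and 3 lower, with a median of 0.60, while 40.7% of all genes were higher and 40.7% lower. RPL28 led with 1.77 ± 0.062 (SE, adjusted p = 2.37e-21), followed by RPS12 with 1.49 (adjusted p = 2.90e-21) and RPL13A with 1.30 (adjusted p = 1.40e-17), and the paralogs RPL26L1, RPL7L1 and RPS27L were the 3 that were lower. These 3 comparisons share their control libraries and are set side by side only.

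**Figure D2:**
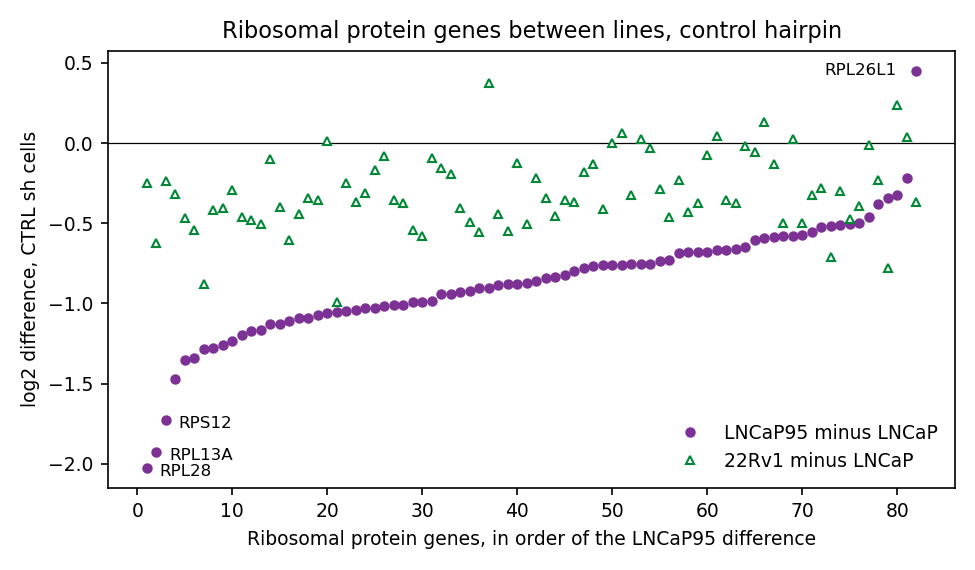
Log2 difference in CTRL sh cells (vertical axis) for 82 ribosomal protein genes, ordered by the difference of LNCaP95 from LNCaP (filled circles), with the difference of 22Rv1 from LNCaP as open triangles. The circles run from -2.03 for RPL28 to 0.45 for RPL26L1, and 80 of the 82 lie below 0 and passed the test.

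CPSF1 knockdown was followed by small falls in many members and by rises in a few. In LNCaP cells 35 of 83 tested members fell, 7 rose and 41 did not pass the test, with a median log2 change of -0.08, where 31.0% of 11096 genes fell and 31.1% rose around a median of 0.00. In LNCaP95 cells 54 of 83 fell and 3 rose, with a median of -0.16, where 33.7% of 11143 genes fell and 33.2% rose. In 22Rv1 cells 20 of 83 fell and 1 rose, with a median of -0.09, where 14.3% of 11728 genes fell and 12.7% rose. Scaling by library size alone gave 6 rises and 31 falls in LNCaP95, with 42.0% of all genes up, 25.6% down and a median of 0.09. A change of scaling shifts all genes of a comparison by about the same amount. The distance of the members' median from that of all genes (-0.16 with library size and -0.16 with TMM) therefore could not change. It does not test the scaling. With the trend with canonical transcript length removed, an alternative chosen after seeing the data, 31 members fell and 6 rose in LNCaP95, where 33.1% of all genes fell, and the distance of the medians was -0.09. The 22Rv1 count rested on single libraries, since 7 members fell without CTRL sh replicate 3, 12 without CTRL sh replicate 2 or CPSF1 sh2 replicate 1, 13 without CPSF1 sh2 replicate 2 or 3 and 46 without CPSF1 sh1 replicate 3, and 2 rose without CPSF1 sh1 replicate 1. The median there was -0.05 without CTRL sh replicate 3. In LNCaP 4 rose without CTRL sh replicate 2. Leaving out LNCaP CPSF1 sh1 replicate 3, with its 22Rv1-type counts, gave 8 rises and 34 falls in LNCaP.

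Of the 82 members tested in all lines, 14 fell in every line, 0 rose in every line and 19 were called in none. Of all members, 59 fell in at least 1 line. The overlap rests on the 22Rv1 count that moved with single libraries. It was not counted over all genes, so whether 14 is many or few cannot be said. The 14 were RPL3, RPL4, RPL10A, RPL13, RPL13A, RPL22, RPL31, RPL34, RPL37, RPS3, RPS6, RPS15A, RPS16 and RPS24. Of these, RPL34, RPL22, RPL13A, RPL3 and RPL13 were named by the size of their smallest fall over the 3 lines. RPL22 was at 372, 356 and 352 CPM with CTRL sh, 269, 268 and 261 CPM with CPSF1 sh1 and 276, 271 and 277 CPM with CPSF1 sh2 in LNCaP cells, a change of -0.40 ± 0.032 (SE, adjusted p = 9.10e-08). All 6 knockdown libraries were below the controls, as they were in LNCaP95, at -0.25 (adjusted p = 0.000292), and in 22Rv1, at -0.29 (adjusted p = 0.000895). RPL34, a large subunit protein, was at 130.0, 131 and 135 CPM with CTRL sh, 101, 116 and 113 CPM with CPSF1 sh1 and 104, 105 and 109 CPM with CPSF1 sh2 in LNCaP95 cells and changed by -0.26 (adjusted p = 0.000159), -0.30 (adjusted p = 0.000194) and -0.28 (adjusted p = 0.00234) in LNCaP, LNCaP95 and 22Rv1.

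RPL3, which reaches into the peptidyl transferase centre, was at 794, 779 and 801 CPM with CTRL sh, 607, 615 and 631 CPM with CPSF1 sh1 and 555, 561 and 579 CPM with CPSF1 sh2 in LNCaP95 cells and changed by -0.22 (adjusted p = 0.000808), -0.43 (adjusted p = 6.93e-06) and -0.25 (adjusted p = 0.00166) in the 3 lines in the same order. RPL13A had the largest fall without overlap of the groups in 22Rv1, with 954, 974 and 1042 CPM with CTRL sh, 798, 827 and 899 CPM with CPSF1 sh1 and 724, 787 and 723 CPM with CPSF1 sh2, a change of -0.32 ± 0.06 (SE, adjusted p = 0.00159). RPL13 changed by -0.21 (adjusted p = 0.00105) in LNCaP, -0.22 (adjusted p = 0.000513) in LNCaP95 and -0.23 (adjusted p = 0.0142) in 22Rv1 cells, where the call was lost without CTRL sh replicate 2 or 3.

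Other large falls were seen in the lines named. RPS27, a zinc finger protein of the small subunit, was at 206, 225 and 221 CPM with CTRL sh, 152, 157 and 153 CPM with CPSF1 sh1 and 144, 139.7 and 149 CPM with CPSF1 sh2 in LNCaP95 cells, a change of -0.55 ± 0.048 (SE, adjusted p = 1.16e-06), and changed by -0.36 (adjusted p = 4.22e-05) in LNCaP. In 22Rv1 its value was -0.10 (adjusted p = 0.176). RPL31, which lies at the tunnel exit, changed by -0.46 (adjusted p = 1.03e-06) in LNCaP95 and -0.21 (adjusted p = 0.00423) in 22Rv1. RPS24, a further Diamond-Blackfan gene, changed by -0.36 (adjusted p = 1.30e-05) in LNCaP95. RPL12, at the base of the stalk, changed by -0.27 (adjusted p = 3.16e-05) in LNCaP, and RPL17 by -0.31 (adjusted p = 1.61e-06).

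RPS29 of the small subunit was called in LNCaP95 alone, at 94.5, 99.0 and 98.2 CPM with CTRL sh, 72.4, 76.6 and 78.2 CPM with CPSF1 sh1 and 76.4, 70.1 and 73.1 CPM with CPSF1 sh2 and a change of -0.39 (adjusted p = 1.54e-05), beside -0.01 (adjusted p = 0.896) in LNCaP and -0.09 (adjusted p = 0.241) in 22Rv1. The differences of LNCaP95 from LNCaP, at -0.37 (adjusted p = 2.63e-05), and of 22Rv1 from LNCaP95, at 0.30 (adjusted p = 0.000337), passed the test themselves.

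The stalk genes RPLP0, RPLP1 and RPLP2, which recruit elongation factors to the ribosome, all fell in LNCaP95, at -0.18 (adjusted p = 0.000932), -0.26 (adjusted p = 0.00062) and -0.14 (adjusted p = 0.0155). In LNCaP RPLP0 fell at -0.14 (adjusted p = 0.00758), and in 22Rv1 RPLP1 fell at -0.18 (adjusted p = 0.0425). RPL5 and RPL11, which outside the ribosome can bind MDM2, are given beside each other. RPL5 did not pass the test in any line, with values of -0.07, -0.03 and -0.09, and RPL11 fell in LNCaP95 at -0.22 (adjusted p = 0.000439) and had -0.08 (adjusted p = 0.114) in LNCaP and -0.12 (adjusted p = 0.0817) in 22Rv1. RPS27A fell in LNCaP at -0.12 (adjusted p = 0.0035) and in LNCaP95 at -0.15 (adjusted p = 0.0226), and RPS4X, the X-linked RPS4 gene, fell in LNCaP95 at -0.15 (adjusted p = 0.00374).

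Counts by class of member are given as a description, since no difference between classes was tested. Among all tested genes, 31.0% fell and 31.1% rose in LNCaP, while 33.7% fell in LNCaP95 and 14.3% in 22Rv1. In LNCaP 18 of 28 small nucleolar RNA hosts fell and 0 rose (median -0.12), beside 17 falls and 7 rises among 55 other members (median -0.06), and in LNCaP95 22 of 28 hosts fell (median -0.20) beside 32 of 55 others (median -0.15). In 22Rv1 7 of 28 hosts and 13 of 55 others fell (medians -0.09 and -0.08). By poly(A) signal, 22 of 52 members with AATAAA, 5 of 12 with ATTAAA and 8 of 17 with neither fell in LNCaP, and 33, 7 and 13 of them fell in LNCaP95. The shorter 41 and the longer 40 canonical transcripts had medians of -0.07 and -0.08 in LNCaP and of -0.15 and -0.16 in LNCaP95.

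**Figure D3:**
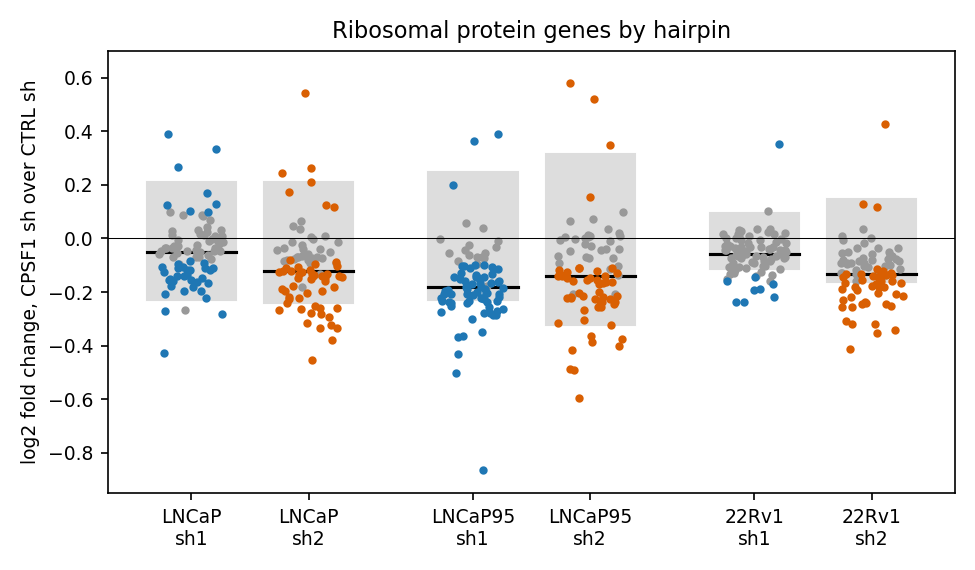
Log2 fold change over CTRL sh (vertical axis) of 83 ribosomal protein genes by line and CPSF1 hairpin. The lowest member of each 22Rv1 column lies below the end of the axis and is not shown. Coloured points passed the test, grey points did not, black lines are the medians of the members and grey boxes span the middle 50% of all tested genes. The medians lie below 0 in all 6 columns, for LNCaP at -0.05 and -0.12, for LNCaP95 at -0.18 and -0.14 and for 22Rv1 at -0.06 and -0.13.

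The hairpins were compared in a fit of 3 groups per line, in which both share the CTRL sh libraries. With CPSF1 sh1, 31 members fell in LNCaP, 64 in LNCaP95 and 8 in 22Rv1, where 31.3%, 33.3% and 11.1% of all genes fell. With CPSF1 sh2, 47, 49 and 41 members fell, where 32.5%, 36.9% and 20.9% of all genes fell. Compared with each other, the hairpins differed for 12 members in LNCaP (1 higher and 11 lower with CPSF1 sh2), 11 in LNCaP95 (9 higher and 2 lower) and 2 in 22Rv1 (0 higher and 2 lower), against 14.8%, 34.1% and 11.3% of all genes. The LNCaP count was 7 with DESeq2 and with library size alone and 5 with the transcript length trend removed, and that of 22Rv1 was 9 without a filter. The counts also moved with single libraries. In LNCaP there were 7 without CTRL sh replicate 1, 4 without CTRL sh replicate 2 or CPSF1 sh2 replicate 3, and 3 without CPSF1 sh1 replicate 1 or CPSF1 sh2 replicate 2. In LNCaP95 there were 18 without CTRL sh replicate 1 or CPSF1 sh1 replicate 3, 19 without CTRL sh replicate 2, 7 without CPSF1 sh1 replicate 1, 5 without CPSF1 sh1 replicate 2 or CPSF1 sh2 replicate 1 and 3 without CPSF1 sh2 replicate 3. In 22Rv1 there were 12 without CPSF1 sh1 replicate 1, 1 without CTRL sh replicate 1 and 0 without CTRL sh replicate 2, CPSF1 sh1 replicate 2 or CPSF1 sh2 replicate 1 or 3. Without LNCaP CPSF1 sh1 replicate 3, with its 22Rv1-type counts, 0 were higher and 10 lower in LNCaP.

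In LNCaP RPS24 differed between the hairpins by -0.18 ± 0.038 (SE, adjusted p = 0.00257), with 534, 491 and 499 CPM for CPSF1 sh1 and 449, 437 and 457 CPM for CPSF1 sh2, followed by RPS27 at -0.18 (adjusted p = 0.00296) and RPL14 at -0.15 (adjusted p = 0.0282). In LNCaP95 members that differed included RPL22L1 at 0.22 (adjusted p = 0.00483) and RPS26, which lies where the mRNA leaves the ribosome, at 0.16 (adjusted p = 0.00623). In 22Rv1 RPL13A at -0.18 (adjusted p = 0.0357) passed, and RPL13 had -0.17 (adjusted p = 0.0623).

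Whether the knockdown change itself differed between lines was tested as an interaction over the 27 libraries. It did for 11 of 82 members between LNCaP95 and LNCaP (3 higher, 8 lower in LNCaP95), for 8 between 22Rv1 and LNCaP (5 higher, 3 lower in 22Rv1) and for 17 between 22Rv1 and LNCaP95 (14 higher, 3 lower in 22Rv1), against 50.9%, 40.4% and 53.7% of all genes. Scaling by library size alone turned the first split to 12 higher and 4 lower and the last to 6 higher and 10 lower. The median of all genes moved from 0.01 to 0.09 and from 0.00 to -0.08. The members' distance from it, -0.06 and 0.06, is fixed under a change of scaling and does not test it. With the exon or the transcript length trend removed there were 24 or 29 between LNCaP95 and LNCaP and 15 with either between 22Rv1 and LNCaP, and the split of the first was 14 or 19 higher and 10 lower. The last split was 8 higher and 11 lower with the transcript length trend removed. Between 22Rv1 and LNCaP there were 4 without LNCaP CTRL sh replicate 3 or 22Rv1 CTRL sh replicate 2, 5 without 22Rv1 CTRL sh replicate 1 and 6 without LNCaP CPSF1 sh1 replicate 3, and between 22Rv1 and LNCaP95 there were 11 without 22Rv1 CTRL sh replicate 1. Members that passed included RPL7L1 at 0.39 (adjusted p = 4.89e-06) and RPL26L1 at -0.39 (adjusted p = 0.00012) in LNCaP95 against LNCaP, RPL26L1 at -0.36 (adjusted p = 0.000742) and RPL22L1 at -0.27 (adjusted p = 0.00724) in 22Rv1 against LNCaP, and RPL22L1 at -0.59 (adjusted p = 8.22e-07) and RPS27 at 0.44 (adjusted p = 3.58e-05) in 22Rv1 against LNCaP95.

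The members that rose were mainly paralogs. Of 7 paralogs tested in LNCaP 5 rose and 0 fell, beside 2 rises and 35 falls among 76 core genes. In LNCaP95 2 of 7 paralogs rose and 2 fell, beside 1 rise and 52 falls of core genes, and in 22Rv1 1 rose and 2 fell, beside 0 and 18. Of all tested genes, 31.1% rose in LNCaP, 33.2% in LNCaP95 and 12.7% in 22Rv1. The paralogs rose at about that share in LNCaP95 and 22Rv1. RPL22L1, the paralog of RPL22, was at 84.5, 97.3 and 95.5 CPM with CTRL sh, 116, 117 and 125 CPM with CPSF1 sh1 and 145, 129.6 and 141 CPM with CPSF1 sh2 in LNCaP95 cells, a change of 0.47 ± 0.079 (SE, adjusted p = 0.000188), and rose in LNCaP by 0.17 (adjusted p = 0.000628). In 22Rv1 its value was -0.12 (adjusted p = 0.088), with libraries of the groups overlapping. Per kilobase of exon, RPL22L1 stood at 87.9 ± 1.56% of the RPL22 level (SD, n = 3) in LNCaP CTRL sh cells, 133 ± 1.80% with CPSF1 sh1 and 129 ± 3.63% with CPSF1 sh2. The size of these percentages rests on annotated exon lengths of 2326 bases for RPL22L1 and 3280 bases for RPL22. The same percentages were 42.0 ± 1.40%, 65.3 ± 1.51% and 73.9 ± 4.38% in LNCaP95. They reached 46.5 ± 1.0%, 50.2 ± 0.961% and 55.1 ± 2.25% in 22Rv1 cells. RPL22L1 holds a TOP tract as RPL22 does.

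RPS27L, the paralog of RPS27, was at 105, 113 and 111 CPM with CTRL sh, 136, 136 and 141 CPM with CPSF1 sh1 and 129, 126 and 133 CPM with CPSF1 sh2 in LNCaP cells, a change of 0.29 ± 0.044 (SE, adjusted p = 4.99e-05). In 22Rv1 cells it was at 59.4, 65.0 and 67.9 CPM with CTRL sh, 80.7, 76.98 and 87.5 CPM with CPSF1 sh1 and 90.9, 83.1 and 84.0 CPM with CPSF1 sh2, a change of 0.39 ± 0.063 (SE, adjusted p = 0.000546), and all knockdown libraries lay above the controls in both lines. The LNCaP95 value was 0.07 (adjusted p = 0.229). Relative to RPS27 per kilobase of exon it stood at 10.1 ± 0.589% with CTRL sh, 15.3 ± 0.754% with CPSF1 sh1 and 16.3 ± 0.286% with CPSF1 sh2 in LNCaP, and at 12.6 ± 0.476%, 18.4 ± 0.866% and 20.4 ± 0.731% in LNCaP95.

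RPL7L1, a paralog of RPL7 known as a factor of ribosome assembly, was at 176, 193 and 185 CPM with CTRL sh, 241, 238 and 250.3 CPM with CPSF1 sh1 and 266, 260.2 and 269.7 CPM with CPSF1 sh2 in LNCaP95 cells, a change of 0.45 ± 0.053 (SE, adjusted p = 1.15e-05), while RPL7 changed by -0.14 (adjusted p = 0.0167). In LNCaP RPL7L1 rose by 0.08 (adjusted p = 0.0305), a call that was lost without CTRL sh replicate 1 or 2, CPSF1 sh1 replicate 2 or CPSF1 sh2 replicate 2 or 3, and in 22Rv1 its value was 0.06 (adjusted p = 0.357). RPL26L1 rose in LNCaP at 51.7, 51.8 and 46.4 CPM with CTRL sh, 56.2, 57.3 and 64.9 CPM with CPSF1 sh1 and 59.6, 58.9 and 59.8 CPM with CPSF1 sh2, a change of 0.26 (adjusted p = 0.000858) or 0.24 without CPSF1 sh1 replicate 3, and fell in LNCaP95 at -0.14 (adjusted p = 0.0309), a call that was lost without CPSF1 sh2 replicate 2. RPL26 had 0.04 (adjusted p = 0.377) and -0.03 (adjusted p = 0.66).

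Of the other paralogs, RPL10L was at 6.36, 5.49 and 6.57 CPM with CTRL sh, 10.3, 7.88 and 6.05 CPM with CPSF1 sh1 and 7.83, 9.15 and 9.54 CPM with CPSF1 sh2 in LNCaP cells, a change of 0.47 (adjusted p = 0.0143) with overlapping libraries, while RPL10 changed by -0.21 (adjusted p = 4.81e-05). RPL36AL had -0.04 (adjusted p = 0.421) in LNCaP and fell in 22Rv1 at -0.16 (adjusted p = 0.0199), and RPL36A fell in LNCaP at -0.12 (adjusted p = 0.0147). RPL39L fell in 22Rv1 at -0.24 (adjusted p = 0.0262), and RPL39 fell in LNCaP and LNCaP95 at -0.16 (adjusted p = 0.00834) and -0.25 (adjusted p = 0.000705). How reads that match several copies were counted is not given in the sources used here, so values of near-identical copies, and of genes with processed pseudogenes, are uncertain.

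The core genes that rose were RPS19 and RPL28. RPS19 was at 188, 175 and 186 CPM with CTRL sh, 208, 208 and 217 CPM with CPSF1 sh1 and 223, 235 and 241 CPM with CPSF1 sh2 in LNCaP95 cells, a change of 0.27 ± 0.056 (SE, adjusted p = 0.00088), and rose in LNCaP by 0.15 (adjusted p = 0.0107), with a 22Rv1 value of 0.12 (adjusted p = 0.0704). RPL28 rose in LNCaP by 0.12 (adjusted p = 0.0162), a call lost without CTRL sh replicate 2, with values of -0.11 (adjusted p = 0.0952) in LNCaP95 and -0.10 (adjusted p = 0.165) in 22Rv1 cells.

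**Figure D4:**
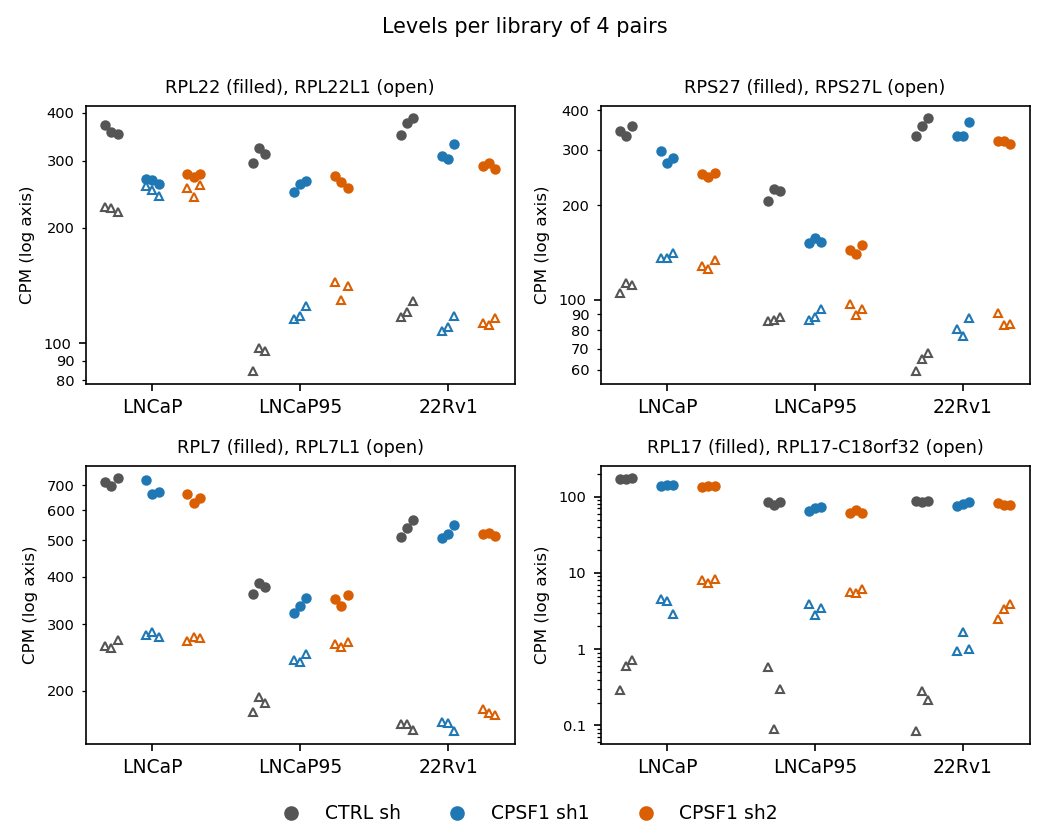
CPM per library (vertical axis, log scale) of RPL22, RPS27, RPL7 and RPL17 (filled circles) and of RPL22L1, RPS27L, RPL7L1 and RPL17-C18orf32 (open triangles), by line and coloured by hairpin. In LNCaP RPL22 lies at 352 to 372 CPM with CTRL sh and at 261 to 277 CPM with the CPSF1 hairpins, and RPL17-C18orf32 rises from 3 to 8 counts per library to 29 to 99.

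The largest change of any member was that of the readthrough symbol RPL17-C18orf32, chr18:47008051-47017956 on the minus strand of GRCh37, whose exons all overlap those of RPL17 or its neighbour C18orf32. It lay below the minimum of 2 CPM in control cells and was therefore tested without that filter, where LNCaP had 24.1% of 17516 genes that rose, LNCaP95 26.8% of 17391 and 22Rv1 10.8% of 17459. In LNCaP it had 3, 7 and 8 counts with CTRL sh, 38, 47 and 29 with CPSF1 sh1 and 89, 99 and 99 with CPSF1 sh2. LNCaP95 libraries had 8, 1 and 3 counts with CTRL sh, 63, 40 and 44 with CPSF1 sh1 and 60, 66 and 66 with CPSF1 sh2. The counts in 22Rv1 were 1, 3 and 2 with CTRL sh, 10, 17 and 10 with CPSF1 sh1 and 27, 31 and 41 with CPSF1 sh2. The knockdown libraries lay above the controls in every line, and the log2 change was 3.43 ± 0.41 (SE, adjusted p = 2.47e-06) in LNCaP, 3.62 ± 0.42 (SE, adjusted p = 3.45e-06) in LNCaP95 and 3.46 ± 0.62 (SE, adjusted p = 0.000462) in 22Rv1 cells. With so few control counts the size of these changes depends on the prior count of the fit.

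CPSF1 sh2 gave more of it than CPSF1 sh1, with a log2 difference of 1.02 (adjusted p = 0.000241) in LNCaP, 0.74 (adjusted p = 0.000332) in LNCaP95 and 1.41 (adjusted p = 0.000691) in 22Rv1. In the same fits RPL17 fell at -0.34 (adjusted p = 6.75e-07) in LNCaP and -0.37 (adjusted p = 0.000284) in LNCaP95 and had -0.13 (adjusted p = 0.0877) in 22Rv1, and C18orf32 fell at -0.44 (adjusted p = 0.0138) and -0.58 (adjusted p = 0.000518) and had -0.27 (adjusted p = 0.131). How reads on exons shared by these symbols were assigned is not given in the sources used here, so the counts of the joined symbol are those reads that the authors' counting gave to it alone. RPS10-NUDT3 had at most 12 counts in a library, with log2 changes of 2.13 (adjusted p = 0.0147) in LNCaP, 0.67 (adjusted p = 0.422) in LNCaP95 and 3.13 (adjusted p = 0.004) in 22Rv1 that rest on these few counts.

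Genes that work with the ribosomal proteins were read from the same fits. Of the ribosome components that the rule does not match, RPSA fell in LNCaP at -0.28 (adjusted p = 1.75e-05) and in LNCaP95 at -0.36 (adjusted p = 2.45e-05), FAU rose in LNCaP by 0.12 (adjusted p = 0.0223), 0 of the 4 passed in 22Rv1, and 3 of 4 were lower in LNCaP95 than in LNCaP CTRL sh cells. The 16 translation factors and other genes with TOP mRNAs were all lower in LNCaP95 CTRL sh cells, with a median of -0.92, led by the elongation factor EEF2 at -1.52 (adjusted p = 1.07e-20) and the poly(A) binding protein PABPC1 at -1.22 (adjusted p = 6.40e-19). After knockdown they moved in either direction, and LNCaP had 2 rises and 6 falls, LNCaP95 4 and 7, and 22Rv1 1 and 6. GLTSCR2, a nucleolar protein of ribosome assembly, fell at -0.54 (adjusted p = 4.44e-08), -0.63 (adjusted p = 0.000452) and -0.62 (adjusted p = 5.98e-05) in LNCaP, LNCaP95 and 22Rv1. In the same order EIF4B fell at -0.31 (adjusted p = 2.88e-07), -0.41 (adjusted p = 2.17e-05) and -0.12 (adjusted p = 0.00835). TPT1 fell at -0.25 (adjusted p = 0.000181), -0.32 (adjusted p = 4.57e-05) and -0.32 (adjusted p = 0.000651). NAP1L1 rose by 0.12 (adjusted p = 0.027), 0.25 (adjusted p = 0.000634) and 0.12 (adjusted p = 0.0241).

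The mitochondrial ribosomal proteins serve the ribosome of another compartment. The counts below stand beside the shares of all genes given above, which for LNCaP were 31.1% up and 31.0% down, for LNCaP95 33.2% and 33.7% and for 22Rv1 12.7% and 14.3%, and no difference between lists was tested. In LNCaP 42 of 74 rose and 9 fell with knockdown (median 0.15), in LNCaP95 30 of 75 rose and 15 fell (median 0.09) and in 22Rv1 3 rose and 8 fell (median -0.01), and between LNCaP95 and LNCaP CTRL sh cells 25 were higher and 26 lower with a median of 0.01. The dedicated chaperones of single ribosomal proteins rose for 7 of 7 in LNCaP and 5 of 7 in LNCaP95, where 1 fell, and for 1 of 7 in 22Rv1. BCCIP, a chaperone of the large subunit protein RPL23, rose by 0.50 (adjusted p = 1.75e-06), 0.48 (adjusted p = 1.37e-05) and 0.29 (adjusted p = 0.000763), and GRWD1, a chaperone of RPL3, by 0.43 (adjusted p = 2.09e-06) and 0.60 (adjusted p = 0.000491) in LNCaP and LNCaP95. Of 13 regulators of TOP mRNAs and mTORC1, 6 rose and 3 fell in LNCaP, 4 rose and 5 fell in LNCaP95 and 1 rose and 3 fell in 22Rv1. DDIT4, an inhibitor of mTORC1, fell at -0.79 (adjusted p = 2.91e-06), -1.24 (adjusted p = 1.96e-05) and -0.47 (adjusted p = 0.000131), and EIF4EBP1, a translation repressor that mTORC1 inactivates, at -0.59 (adjusted p = 2.13e-06), -0.48 (adjusted p = 1.19e-05) and -0.41 (adjusted p = 0.00141). EIF4EBP2, also among the 13, rose by 0.13 (adjusted p = 0.00447), 0.41 (adjusted p = 5.80e-06) and 0.15 (adjusted p = 0.0439) in LNCaP, LNCaP95 and 22Rv1. LARP4, which binds poly(A) tails, rose by 0.60 (adjusted p = 4.28e-08) and 0.58 (adjusted p = 1.78e-05) in LNCaP and LNCaP95.

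Since the members are short and abundant, their changes were set beside the trend of all other tested genes with length and with level. At the members' canonical transcript lengths the trend after knockdown was 0.02 for LNCaP, -0.08 for LNCaP95 and -0.04 for 22Rv1 (medians over 81 members, log2), and the members' median distance from it was -0.10, -0.09 and -0.06, with 67, 57 and 64 of 81 below. In LNCaP95 the trend itself ran from -0.20 for the shortest to 0.04 for the longest, so that other genes of the members' length also lay below 0 there. Against the trend with level, their median distance was -0.12, -0.11 and -0.10.

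The lower levels of LNCaP95 CTRL sh cells did not follow such a trend. At the members' transcript lengths other genes had a trend of 0.05 between LNCaP95 and LNCaP, and 79 of 80 members lay below it, with a median distance of -0.92. Other genes at or above the median level of the members had a median difference of -0.01, with 166 higher and 170 lower of 417.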

How the data were processed

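RNA of the 27 libraries was prepared with a stranded mRNA kit. Per the paper's methods, read pairs were mapped by the authors with HISAT2 2.1.0 (genome hg19, GRCh37), and exonic fragments were assigned in reverse-stranded mode by featureCounts of Subread, whose version the submitters' processing notes give as 2.0.3. The deposited table holds raw counts for 20268 gene symbols with exon lengths, without normalization, and all columns were matched to samples by name. Whether duplicates were removed, and how reads on shared exons or several copies were counted, is not given in the sources used here.

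Each line was fitted in R 4.3.3 with edgeR 4.0.16 (quasi-likelihood F-test, legacy form) on genes above 2 CPM in all 9 of its libraries, with TMM scaling, 3 CTRL sh against 6 CPSF1 sh libraries and Benjamini-Hochberg adjustment over all tested genes. Hairpins were compared in fits of 3 groups, and lines in a fit of all 27 libraries. Trends with length and level were lowess curves with a span of 0.3 over the other genes. Printed levels are CPM scaled over the 27 libraries, and the depth of 8515624 to 15904518 counts sets counting error, while the biological coefficient of variation was 4.95, 7.09 and 6.08% in LNCaP, LNCaP95 and 22Rv1. A floor of 3 counts covers counting error only.

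Alternatives were RLE size factors, library size alone, TMM from the other genes, DESeq2 1.42.0, edgeR 4 quasi-likelihood, other filters, length trends, each hairpin alone, a replicate block and each library left out. Removing the trend with canonical transcript length was chosen after seeing the data. Named were the members with the largest changes whose groups did not overlap, those called in all lines, those that differed most between hairpins or lines, paralogs with their partners, stalk and readthrough symbols, RPL5, RPL11, RPS27A, the highest and lowest members, and some genes of the lists. The members and lists were chosen with earlier results of these data known. Promoter entries matched 69 members and canonical transcripts 86. The values of some genes that the rule names are not reported here, and these genes stay in the counts.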

Additional observations from a re-analysis of the deposited data

Results flagged for a closer look

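The change after CPSF1 knockdown differed between the lines for some ribosomal protein genes by the interaction term of the edgeR quasi-likelihood fit, which is why they are listed here. Between LNCaP95 and LNCaP 11 of 82 members differed, and the largest were RPL7L1 at 0.39 on the log2 scale, RPL26L1 at -0.39 and RPS29 at -0.37. Between 22Rv1 and LNCaP 8 members differed, with RPL26L1 at -0.36 and RPL22L1 at -0.27. Between 22Rv1 and LNCaP95 17 members differed, with RPL22L1 at -0.59 and RPS27 at 0.44. Of all 10317 tested genes, 50.9%, 40.4% and 53.7% differed in these comparisons in the same order, larger shares than among the members. All 3 comparisons share libraries. RPL7L1, RPL26L1 and RPL22L1 are paralogs, and RPS29 and RPS27 are core genes of the small subunit. The groups hold 3 libraries each, too few for a search of the members' values for outlying libraries.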

How the results depend on the processing

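Counts of called members depended on the setting as follows. In 22Rv1, where 20 members fell, CPSF1 sh1 alone gave 8 and CPSF1 sh2 alone 41. Rises in 22Rv1 (1) numbered 2 with library size alone, with edgeR's own expression filter, with the exon length trend or the transcript length trend removed, and 3 with CPSF1 sh2 alone or no filter. In LNCaP95, 3 rises became 6 with library size alone, 7 with the exon length trend and 6 with the transcript length trend removed, and 54 falls became 31 with library size alone and 31 with the transcript length trend removed. Members that differed between hairpins in LNCaP (12) numbered 7 with library size alone, 7 with DESeq2 and 5 with the transcript length trend removed, and in 22Rv1 (2) 9 with no filter and 1 with the transcript length trend removed. Interactions of LNCaP95 and LNCaP (11) numbered 24 and 29, and of 22Rv1 and LNCaP (8) 15 and 15, with the exon and the transcript length trend removed. For the RP share of counts, knockdown minus control, LNCaP had -0.318 percentage points with both hairpins, -0.248 if only CPSF1 sh1 was used and -0.388 if only CPSF1 sh2 was. The cause of these shifts was not tested.

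Leaving out each library in turn gave LNCaP 4 to 8 rises and 27 to 49 falls, LNCaP95 3 to 3 and 44 to 54, and 22Rv1 1 to 2 and 7 to 46. Hairpin differences ranged from 3 to 17, 3 to 19 and 0 to 12, interactions from 9 to 14, 4 to 10 and 11 to 21, and members called between control cells from 81 to 82, 60 to 69 and 75 to 78. The share differed by -0.369 to -0.281, -0.126 to -0.088 and -0.284 to -0.135 percentage points.

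The replicate numbers were not taken as pairs, since the labels name no shared batch and same-numbered pairs correlated above 0.1 for 3 of 9 pairs of LNCaP, 3 of 9 of LNCaP95 and 1 of 9 of 22Rv1 (medians 0.060, 0.030 and -0.0044). Differently numbered pairs had medians of -0.020, -0.046 and -0.012, and in LNCaP 0 of 18 were above 0.1, a hint from the data and not from the design. With the replicate number as a block, LNCaP had 8 rises and 36 falls, LNCaP95 3 and 50, and 22Rv1 1 and 19, and the hairpins differed for 33 members in LNCaP, 16 in LNCaP95 and 5 in 22Rv1. For 48 fold changes of named members, those taken by size of change, 1189 of 1200 values under alternatives kept their direction and their side of the threshold, and 11 no longer passed.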

Other observations

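Beside the 3 readthrough symbols among the members, the table holds 83 other symbols that join the names of genes of the table with a hyphen. Whether these genes are neighbours was not checked, and the group was chosen after its values were seen. In the same fits without a filter, 4 of 58 tested rose and 1 fell in LNCaP, 10 of 55 rose and 3 fell in LNCaP95, and 3 of 53 rose and 1 fell in 22Rv1 cells. Of all genes, 24.1, 26.8 and 10.8% rose in those fits. Their median log2 changes were 0.51, 0.96 and 0.03.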
